A study of Homo sapiens with 6 samples.

Results

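The transcripts of 30 genes of cholesterol synthesis, uptake and sterol sensing were examined in MDA-MB-231 cells. This human line was established from a breast cancer that lacks hormone receptors and HER2. The genes were chosen by name, in pathway order, from the 58735 genes of the count table. They are 19 enzymes of the synthesis pathway that starts from acetyl units, 6 genes that sense sterols and 5 that take up, move or store them. GGPS1 is counted among the 19, although it makes a unit for protein prenylation and not for cholesterol. The 6 libraries form 2 groups of 3 by the treatment in the labels, Control and PM2.5 (airborne particles up to 2.5 micrometres across), and RNA was taken with TRIzol after 48 h. Both groups are the same parental line with no named allele or transgene, while the sources used here give neither the particle dose nor the handling of the controls. All 30 genes passed the filter on low counts and were tested.

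Cholesterol is made from acetyl-CoA through mevalonate, isoprenoid units, squalene and lanosterol. When sterols in the endoplasmic reticulum run low, SCAP carries the transcription factor SREBP2 (encoded by SREBF2) to the Golgi, where it is cut free and switches on genes of the pathway, while INSIG proteins hold SCAP back when sterols are plentiful. Oxidised sterols instead activate the LXR nuclear receptors (NR1H2 and NR1H3), which promote export and limit uptake, and surplus cholesterol is stored as esters made by SOAT1.

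Total counts were 31846136 to 34691009 per library. Control replicate 3 stood apart from the other controls on the second principal component (-36.94 against 16.48 and 14.83), and it held 2919 CPM (counts scaled to 1 common library total) of the chaperone HSPA5 against 5640.5 and 6792 CPM. Results that rest on it are given with and without it. HMOX1, at 757 to 873 CPM in Control and 44.9 to 56.7 CPM in PM2.5, and CYP1A1, at 6.29 ± 1.73 and 2.73 ± 0.65 CPM (SD, n = 3 each), are genes that particles are known to induce and were lower in PM2.5, so directions are given for the libraries as labelled. Of the line's markers VIM and CD44 were abundant in all libraries, and KRT18 rose 1.79-fold from 156 to 184 CPM in Control to 281 to 333 CPM in PM2.5. Of 5 luminal markers 4 were under 1 CPM in every library, as were 3 of 4 leukocyte, 2 of 3 endothelial and all 3 hepatocyte markers. The exceptions moved with the groups: GATA3 fell 1.45-fold, CD14 rose 1.747-fold to 2.53 to 3.73 CPM and PECAM1 rose 1.26-fold to 53.3 to 57.7 CPM. The summed levels of these lists were 5.15 to 7.10 CPM in Control and 3.86 to 4.61 CPM in PM2.5 for the luminal, 1.14 to 2.29 and 2.53 to 3.73 CPM for the leukocyte, and 38.9 to 50.9 and 53.6 to 58.5 CPM for the endothelial markers. Their part in the results was not tested.

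Sterol genes moved both ways and mostly by little. Of the 30 genes 3 rose and 8 fell in the libraries labelled PM2.5 (10% and 26.7%), against 16.1% of all 14975 tested genes that rose and 15.8% that fell (31.9% in either direction). A call here is an adjusted p under 0.05 in a quasi-likelihood test (edgeR), with the Benjamini-Hochberg method applied across the tested genes. The rises were INSIG2, STARD4 and MYLIP, and the falls were PMVK, TM7SF2, SC5D, DHCR7, INSIG1, NR1H2, NR1H3 and SOAT1. The median log2 fold change was -0.15 over the 30 genes and -0.01 over all tested genes, and the median size of change without sign was 0.28 and 0.30. That size was 0.26 over the 9889 tested genes within the members' range of mean level. Only TM7SF2 and NR1H3 changed at least 2-fold. For 12 of the 30 genes no Control library fell within the PM2.5 range or the reverse (5 higher, 7 lower), as for 44.3% of all tested genes (21.4% higher, 22.9% lower). Of the 11 calls 6 held under all 13 alternatives tried (TM7SF2, INSIG2, NR1H2, NR1H3, STARD4 and SOAT1). The number of falls was 12 without Control replicate 3, 4 without Control replicate 1, Control replicate 2 or PM2.5 replicate 1, and 5 without PM2.5 replicate 2, and the number of rises was 2 to 3. Falls over all tested genes moved as well. They were 2365 of 14975 with all libraries, 2680 of 15413 without Control replicate 3 and 1448 of 15426 without PM2.5 replicate 1. A change in every cell and a change in the share of cells in some state cannot be told apart in bulk RNA.

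**Figure D1:**
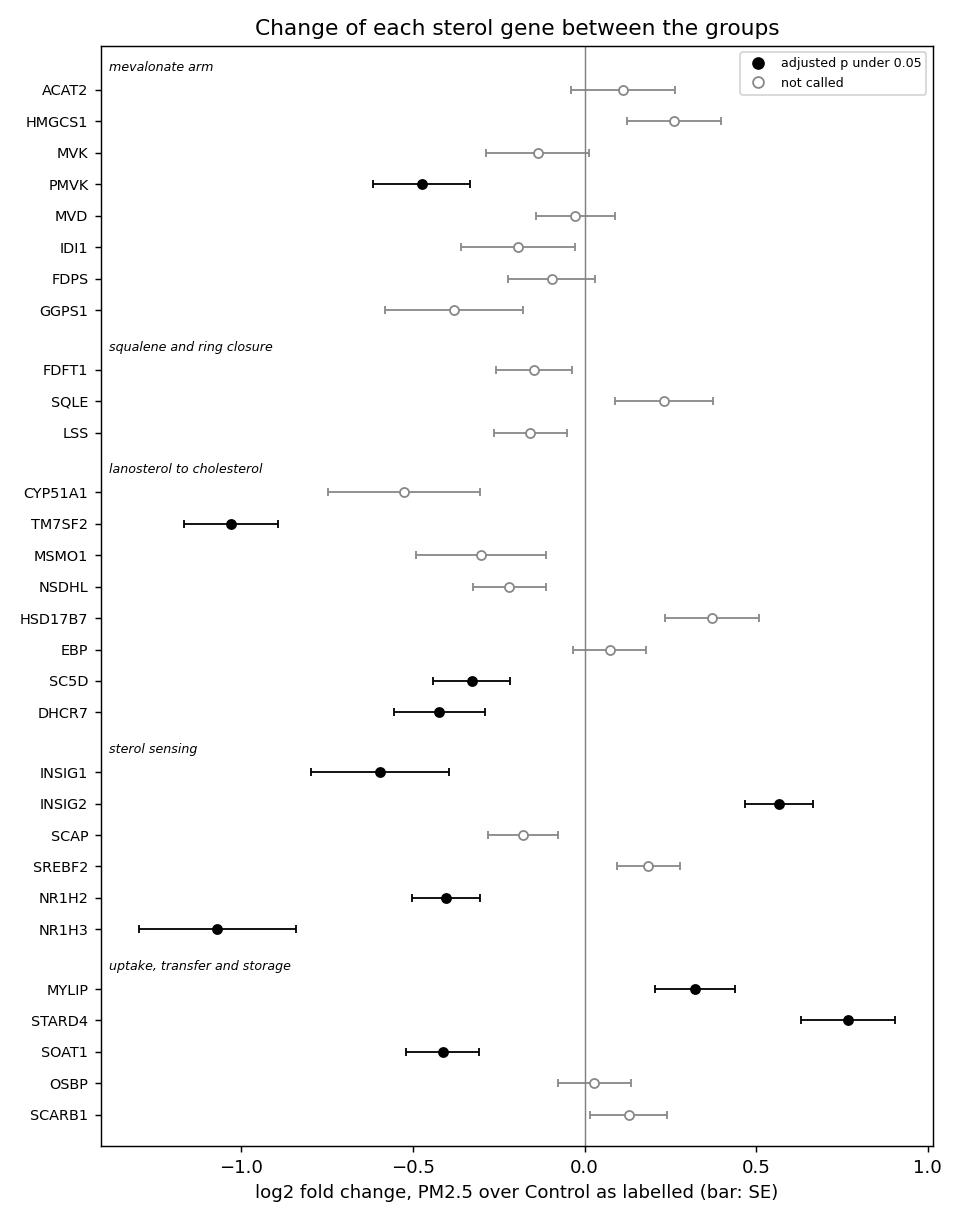
Log2 fold change of each of the 30 genes, PM2.5 over Control as labelled (x axis), with its SE as a bar, by role (y axis); filled points passed the test over all genes. TM7SF2 (-1.03) and NR1H3 (-1.07) lie farthest to the left and STARD4 (0.77) and INSIG2 (0.57) farthest to the right.

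The enzymes of synthesis fell in 4 of 19 cases and rose in 0 (edgeR). The falls are 21.1% of the enzymes, near the 15.8% of all tested genes that fell, while 16.1% of all tested genes rose. At an unadjusted p under 0.05 (edgeR) 1 enzyme was higher and 5 were lower. At that threshold 3104 of all 14975 tested genes were higher and 3179 lower. DESeq2 and limma-voom each called 1 enzyme higher, HSD17B7. The number of falls was 8 without Control replicate 3, 1 without Control replicate 1, Control replicate 2 or PM2.5 replicate 1, and 2 without PM2.5 replicate 2. Falls over all tested genes were 2365 of 14975 with all libraries, 2680 of 15413 without Control replicate 3 and 1448 of 15426 without PM2.5 replicate 1. The summed level of the enzymes was 781, 807 and 601 CPM in Control replicates 1 to 3 and 646, 637 and 643 CPM in PM2.5 replicates 1 to 3. In this sum the PM2.5 libraries thus lay close together, between Control replicate 3 and the other controls. FDFT1, DHCR7 and MSMO1 weigh most in it, with Control means of 136, 108 and 81.5 CPM. As a share of all counts the 19 enzymes took 0.0629% to 0.0781% of a library.

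The mevalonate arm makes the isoprenoid building blocks, and 1 of its 8 genes fell (12.5%, against 15.8% of all tested genes). PMVK, the kinase that adds the second phosphate to mevalonate (chromosome 1, 154924734 to 154936991, minus strand, GRCh38, ENSG00000163344), had 14.5, 14.7 and 13.3 CPM in Control and 10.7, 8.81 and 11.1 CPM in PM2.5. All 3 PM2.5 libraries lay below all controls, and the log2 change was -0.47 ± 0.14 (SE, n = 3 each, adjusted p = 0.0171, edgeR). With Control replicates 1 or 2 left out edgeR gave an adjusted p of 0.0559 or 0.0607, and with PM2.5 replicates 1 or 2 left out 0.0546 or 0.0719, so each of these 4 fits lost the call. HMGCS1, which condenses acetyl and acetoacetyl units, was at 20.3 ± 2.75 and 24.4 ± 3.57 CPM (log2 change 0.26 ± 0.14), and the groups overlapped. ACAT2, the cytosolic thiolase that starts the pathway, was at 12.8 ± 1.597 and 13.8 ± 2.15 CPM, and 52.3% of its exon sequence overlaps exons of SOD2-OT1, SOD2 and TCP1.

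The other steps of this arm did not pass the test. Log2 changes were -0.14 for mevalonate kinase (MVK), -0.03 for the decarboxylase MVD and -0.10 for farnesyl diphosphate synthase (FDPS). IDI1, the isomerase of the 5-carbon units, varied most among the controls of this arm, with 46.1, 60.2 and 32.04 CPM in Control and 41.8, 43.8 and 35.3 CPM in PM2.5. Its log2 change was -0.19 ± 0.17, and -0.40 (adjusted p = 0.0259, edgeR) without Control replicate 3. GGPS1, which makes the geranylgeranyl unit for protein prenylation, was at 5.89 ± 0.278 and 4.52 ± 1.21 CPM, and 37.3% of its exonic bases lie under same-strand exons of other genes, chiefly TBCE.

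No call was made among the 3 genes from squalene formation to ring closure in edgeR, where 31.9% of all tested genes were called. At an unadjusted p under 0.05 (edgeR) the count was also 0, against 3104 higher and 3179 lower of all 14975 tested genes. Squalene synthase (FDFT1) commits isoprenoids to sterols and had 146, 151 and 111 CPM in Control and 122, 119 and 127 CPM in PM2.5. The PM2.5 libraries lay below Control replicates 1 and 2 and above Control replicate 3, and without that library the log2 change was -0.28 (adjusted p = 0.0133, edgeR) in place of -0.15. SQLE, the squalene epoxidase and a controlled step of the pathway, had 19.7, 19.5 and 13.96 CPM in Control and 19.01, 22.6 and 20.8 CPM in PM2.5 (log2 change 0.23 ± 0.14, adjusted p = 0.237, edgeR). Lanosterol synthase (LSS) went the other way in Control replicate 3, at 53.4 CPM against 47.6 and 42.6 CPM in the other controls and 41.2 to 44.04 CPM in PM2.5.

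From lanosterol to cholesterol 3 of 8 enzymes fell (37.5%, against 15.8% of all tested genes) and 0 rose. TM7SF2, a C14-sterol reductase (chromosome 11, 65111845 to 65116384, plus strand, ENSG00000149809), had 23.3, 19.5 and 21.6 CPM in Control and 10.2, 9.32 and 12.01 CPM in PM2.5. It fell 2.04-fold (log2 change -1.03 ± 0.14, SE, n = 3 each, adjusted p = 3.44e-05, edgeR), with no overlap, and Control replicate 3 sat between the other controls. LBR, the lamin B receptor of the inner nuclear membrane, carries the same C14-reductase activity and rose from 19.9, 20.2 and 25.7 CPM to 37.5, 41.1 and 32.1 CPM (log2 change 0.75 ± 0.13). Per kilobase of exon, the ratio of LBR to TM7SF2 levels was 0.555, 0.673 and 0.774 in Control and 2.39, 2.86 and 1.73 in PM2.5. By that measure LBR was below TM7SF2 in all 3 controls and above it in all 3 PM2.5 libraries. In CPM, without division by length, LBR was already above TM7SF2 in Control replicates 2 (20.2 against 19.5) and 3 (25.7 against 21.6). The shift of the ratio restates the opposite changes of these genes. The proliferation marker MKI67 was at 21.045 to 26.2 CPM in Control and 144 to 171 CPM in PM2.5, and its part in these changes was not tested.

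DHCR7, which catalyses the last reduction to cholesterol (chromosome 11, 71428193 to 71452868, minus strand, ENSG00000172893), had 119, 125 and 81.1 CPM in Control and 77.6, 77.5 and 87.4 CPM in PM2.5. Its log2 change was -0.42 ± 0.13 (adjusted p = 0.023, edgeR), but Control replicate 3 lay within the PM2.5 range. With Control replicates 1 or 2 left out edgeR gave an adjusted p of 0.08 or 0.127, with PM2.5 replicates 1 or 2 left out 0.0957 or 0.0767, and these fits lost the call. Without Control replicate 3 the log2 change was -0.60. SC5D, the desaturase of the step before, had 32.4, 33.4 and 29.8 CPM in Control and 25.3, 27.8 and 23.1 CPM in PM2.5, a log2 change of -0.33 ± 0.11. Fits that left out Control replicates 1 or 2 (adjusted p = 0.102 and 0.119, edgeR) or PM2.5 replicates 1 or 3 (0.127 and 0.0943) lost that call.

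The remaining enzymes of this stretch did not pass the test. MSMO1, which starts the removal of the C4 methyl groups, had 91.1, 104 and 49.3 CPM in Control and 67.6, 73.6 and 57.03 CPM in PM2.5. Control replicate 3 was the lowest of all 6 libraries, and the log2 change was -0.30 ± 0.19 with it and -0.57 (adjusted p = 0.00165, edgeR) without it. It was also called with no filter on low counts (adjusted p = 0.0272, edgeR). NSDHL, the next C4 demethylation enzyme, was at 44.8 ± 4.36 and 38.5 ± 2.34 CPM, and was called without Control replicate 3 only (log2 change -0.30, adjusted p = 0.0303, edgeR). HSD17B7, the ketoreductase of the same complex, had 11.4, 12.99 and 10.01 CPM in Control and 14.5, 14.6 and 15.4 CPM in PM2.5, with no overlap. It missed the threshold at a log2 change of 0.37 ± 0.14 (adjusted p = 0.0501, edgeR) and passed it in 6 of 13 alternatives, among them without Control replicate 2 (adjusted p = 0.0418). The counts of its pseudogenes came to 11.4% of its own, so reads may be split between them. EBP, the sterol isomerase, was at 38.8 ± 3.67 and 40.8 ± 3.09 CPM. The demethylase CYP51A1 had 4.77, 5.99 and 4.48 CPM in Control and 4.12, 3.95 and 2.51 CPM in PM2.5 (log2 change -0.53 ± 0.22, adjusted p = 0.0817, edgeR), but 79.4% of its exonic bases lie under same-strand exons of other genes, so its level is uncertain.

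**Figure D2:**
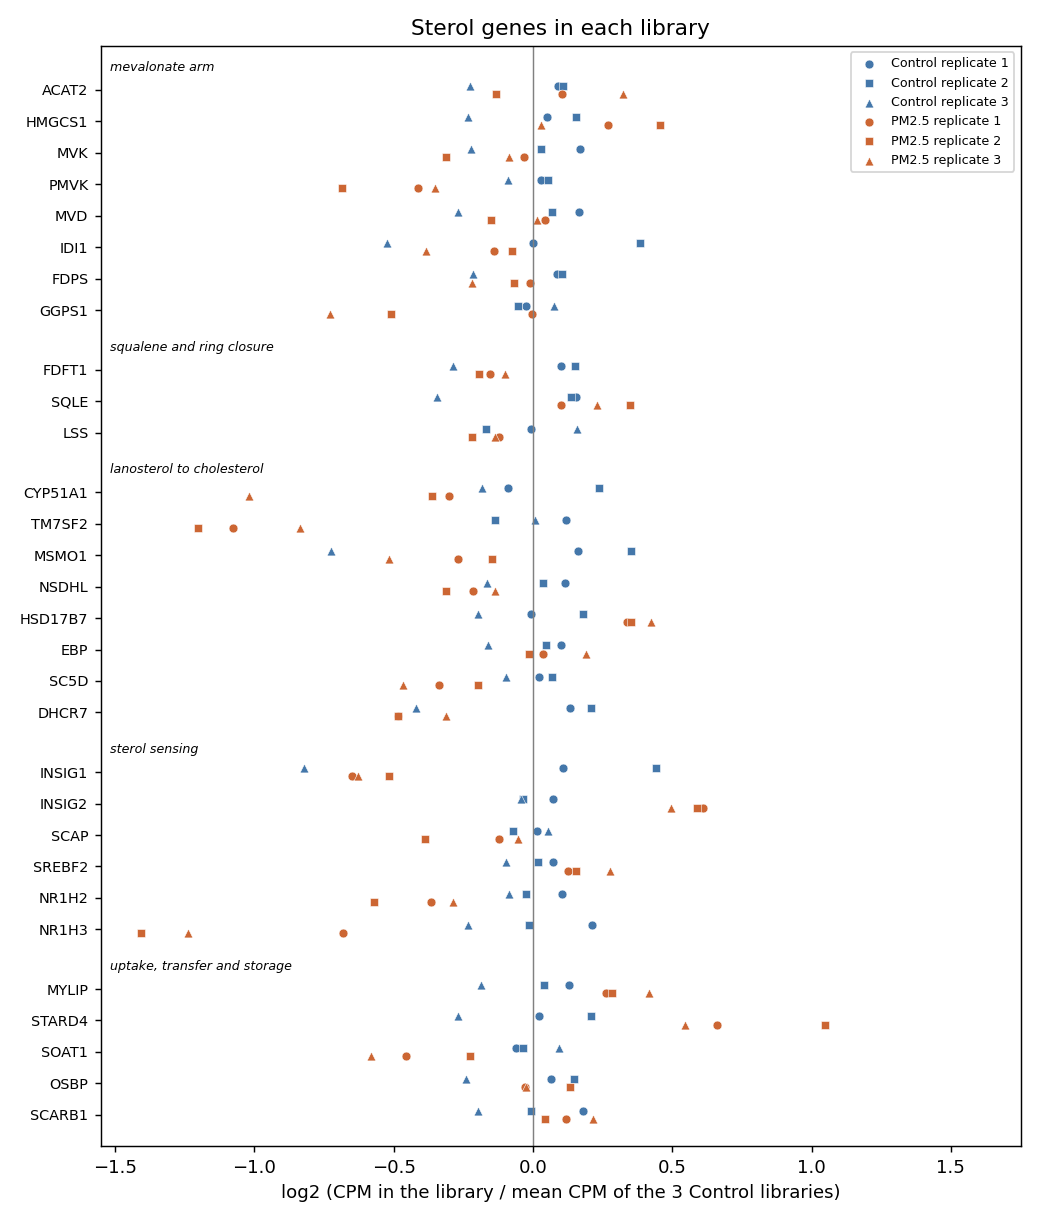
Log2 of CPM in each library over the mean of the 3 Control libraries (x axis) for each of the 30 genes by role (y axis); blue is Control, orange is PM2.5, and circle, square and triangle are replicates 1, 2 and 3. The blue triangle, Control replicate 3, is the lowest control for 25 of the 30 genes.

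The 25 genes with Control replicate 3 as the lowest control are 83.3% of the 30, where 39.4% of all tested genes had it lowest, and 43.5% of the 9889 tested genes within the members' range of mean level. The median ratio of Control replicate 3 to the mean of the other controls was 0.82 for the 30 genes and 1.003 for all tested genes. The ratio was 0.465 for INSIG1, 0.506 for MSMO1, 0.603 for IDI1, 0.664 for DHCR7, 0.712 for SQLE and 0.751 for FDFT1. Other enzymes moved less, with ratios of 0.906 for SC5D and 1.008 for TM7SF2. SOAT1, SCAP, GGPS1 and LSS were highest in that library among the controls, by ratios of 1.10, 1.06, 1.083 and 1.18. This is a description of 1 library and has no replicate. HSPA5 was low in the same library but high in PM2.5, at 12311, 13066 and 12574 CPM (log2 change 1.31), and the part of either in the other was not tested.

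**Figure D3:**
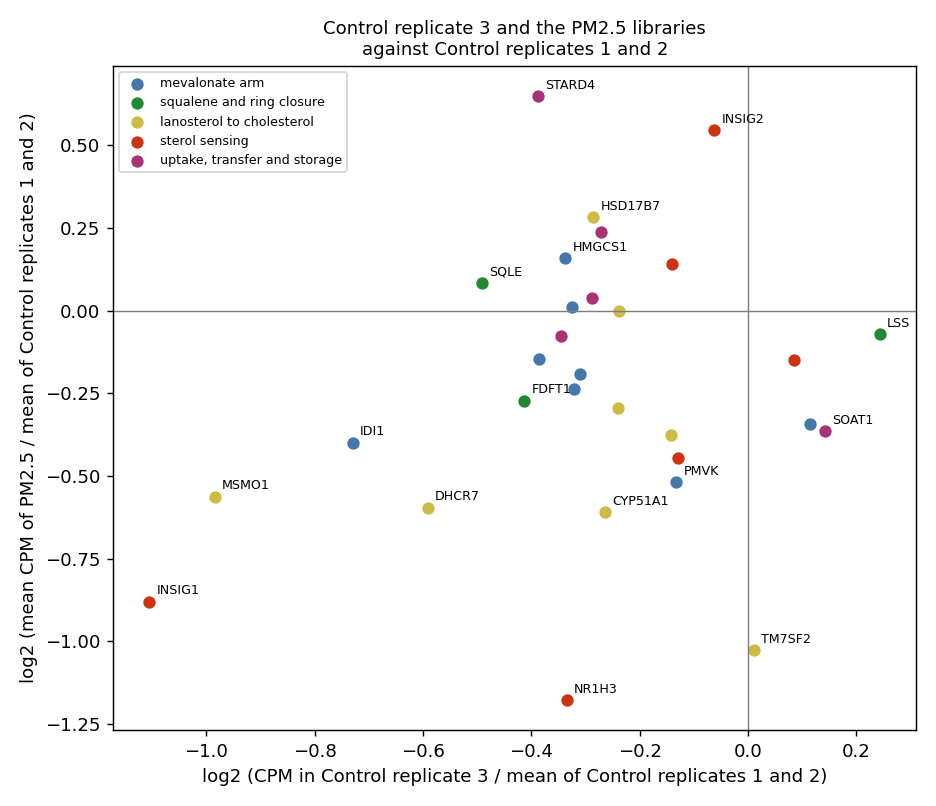
Each point is 1 of the 30 genes, coloured by role: log2 of Control replicate 3 over the mean of Control replicates 1 and 2 (x axis) against log2 of the PM2.5 mean over the same 2 libraries (y axis). Both axes share their denominator, so no correlation is given. INSIG1, MSMO1, IDI1 and DHCR7 lie far to the lower left, while STARD4 was low in Control replicate 3 and high in PM2.5.

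Among the sterol sensors the INSIG genes moved in opposite directions. INSIG1, itself an SREBP2 target and the partner that holds SCAP in the endoplasmic reticulum (chromosome 7, 155297776 to 155310235, plus strand, ENSG00000186480), had the highest mean level per kilobase of the 30 genes in Control, 70.1 CPM per kilobase. In Control replicate 3 its level per kilobase was 39.7, below NR1H2 (49.2) and OSBP (43.4). In PM2.5 its mean was below that of OSBP (46.4 against 52.3). The INSIG1 libraries were at 276, 347 and 145 CPM in Control and 163, 179 and 166 CPM in PM2.5. Control replicate 3 lay below all PM2.5 libraries while the other controls lay far above them, and the coefficient of variation was 40.1% in Control and 4.97% in PM2.5. The log2 change was -0.60 ± 0.20 (adjusted p = 0.0331, edgeR). That call was lost with DESeq2 (adjusted p = 0.173) and limma-voom (0.0769). In edgeR it was also lost when Control replicates 1 or 2 were left out (adjusted p = 0.0542 and 0.222) or PM2.5 replicates 1, 2 or 3 (0.0794, 0.0652 and 0.0845), and without Control replicate 3 the log2 change was -0.88, and -0.32 without Control replicate 2.

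INSIG2, the second INSIG protein (chromosome 2, 118088452 to 118110997, plus strand, ENSG00000125629), had 33.5, 31.1 and 30.9 CPM in Control and 48.7, 47.9 and 44.8 CPM in PM2.5. It rose 1.48-fold (log2 change 0.57 ± 0.10, SE, n = 3 each, adjusted p = 0.000421, edgeR), with no overlap and with Control replicate 3 close to the other controls. The ratio of INSIG1 to INSIG2 levels per kilobase was 8.91, 12.1 and 5.07 in Control and 3.63, 4.04 and 3.997 in PM2.5. INSIG1 thus stayed the more abundant transcript in every library, by a smaller ratio in each PM2.5 library than in any control.

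The promoters of 6 of these genes are printed with motifs marked. SREBP2 and its partner NF-Y are known to act through the sterol response element and CCAAT, and the GC box is marked beside these. The genes printed are the 3 with the lowest ratios in Control replicate 3 (INSIG1, MSMO1 and IDI1) and the largest rises (STARD4 and INSIG2). SREBF2, which holds the longest motif searched, is printed too. The sequences are from RefSeq (GRCh38.p14), read 5′ to 3′ on the gene's strand and end just before the deposited gene's first base. Capitals mark CACNCCAC (the core of the sterol response element), CCAAT and GGGCGG (the GC box), each on either strand.
INSIG1, chr7:155297628-155297775, plus strand: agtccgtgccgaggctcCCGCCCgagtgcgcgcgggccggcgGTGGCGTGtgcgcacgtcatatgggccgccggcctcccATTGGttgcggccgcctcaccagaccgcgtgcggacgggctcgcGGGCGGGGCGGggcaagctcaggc
MSMO1, chr4:165327419-165327622, plus strand: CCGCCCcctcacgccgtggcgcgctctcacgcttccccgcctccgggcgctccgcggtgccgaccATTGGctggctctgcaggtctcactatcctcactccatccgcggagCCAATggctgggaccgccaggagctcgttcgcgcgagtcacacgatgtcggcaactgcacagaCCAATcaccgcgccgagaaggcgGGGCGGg
IDI1, chr10:1049171-1049369, minus strand: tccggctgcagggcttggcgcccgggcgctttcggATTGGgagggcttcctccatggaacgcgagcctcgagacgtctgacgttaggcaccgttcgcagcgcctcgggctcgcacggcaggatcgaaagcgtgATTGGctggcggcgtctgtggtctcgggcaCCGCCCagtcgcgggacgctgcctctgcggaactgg
SREBF2, chr22:41832855-41833078, plus strand: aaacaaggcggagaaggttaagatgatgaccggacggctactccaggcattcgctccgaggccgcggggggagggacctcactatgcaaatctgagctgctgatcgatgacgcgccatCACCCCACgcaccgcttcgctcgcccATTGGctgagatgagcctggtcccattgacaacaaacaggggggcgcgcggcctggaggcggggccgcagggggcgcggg
STARD4, chr5:111512591-111512785, minus strand: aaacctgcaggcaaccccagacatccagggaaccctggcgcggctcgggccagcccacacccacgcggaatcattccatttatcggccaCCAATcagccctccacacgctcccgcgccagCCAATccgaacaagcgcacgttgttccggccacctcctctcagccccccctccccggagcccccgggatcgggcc
INSIG2, chr2:118088221-118088451, plus strand: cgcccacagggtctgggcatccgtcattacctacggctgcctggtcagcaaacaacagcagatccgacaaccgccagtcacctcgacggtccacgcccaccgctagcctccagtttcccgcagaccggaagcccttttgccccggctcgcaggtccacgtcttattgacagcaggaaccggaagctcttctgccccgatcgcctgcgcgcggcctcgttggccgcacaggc

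The SREBF2 window overlaps exons of the antisense transcript SREBF2-AS1. Entries matched 26 of the 30 genes. Over 250 bases before to 50 after each listed start, CCAAT was found in 21 of the 26 (80.8%), against 42.9% of the 10466 tested genes with an entry. The GC box was found in 25 of 26 (96.2%) against 76.8%, the core CACNCCAC in 4 of 26 (15.4%; IDI1, SC5D, INSIG1 and SREBF2) against 7.78%, and the longer TCACNCCAC in SREBF2 alone (3.85%) against 1.4%. The core is part of the longer motif and was searched after it. A gene with several listed starts was counted once if any of them matched, which is why IDI1 counts for the core although the window printed for it holds none. INSIG2 holds neither the core nor CCAAT in its window. A match is only a run of letters, and no test was made.

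SCAP and SREBF2 did not pass the test. SREBF2 (chromosome 22, 41833079 to 41907308, plus strand, ENSG00000198911) had 116, 112 and 103 CPM in Control and 120.1, 122 and 133 CPM in PM2.5, without overlap, and a log2 change of 0.19 ± 0.09 (adjusted p = 0.137, edgeR). SCAP was at 121 ± 5.40 and 107 ± 12.6 CPM. The paralogue SREBF1, which favours fatty acid genes and was chosen after its values were seen, was at 62.8 ± 4.39 and 59.4 ± 4.73 CPM.

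Both LXR genes fell. NR1H2, the widely expressed LXR beta (chromosome 19, 50329653 to 50382982, plus strand, ENSG00000131408), had 211, 193 and 185 CPM in Control and 152, 132 and 161 CPM in PM2.5. NR1H3, LXR alpha (chromosome 11, 47248300 to 47269032, plus strand, ENSG00000025434), had 6.21, 5.31 and 4.56 CPM in Control and 3.34, 2.02 and 2.27 CPM in PM2.5. For both genes all PM2.5 libraries lay below all controls. NR1H2 fell by 0.40 ± 0.10 and NR1H3 by 1.07 ± 0.23 on the log2 scale (adjusted p = 0.00577 and 0.00206, edgeR). Per kilobase the NR1H2 level was 41.03 to 48.9 times that of NR1H3 in Control and 55.1 to 85.4 times in PM2.5, so LXR beta made up nearly all LXR transcripts in every library.

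Of the 5 genes of uptake, transfer and storage 2 rose and 1 fell (40% and 20%, against 16.1% and 15.8% of all tested genes). STARD4, a soluble carrier that moves cholesterol to the endoplasmic reticulum and is known as an SREBP2 target (chromosome 5, 111496033 to 111512590, minus strand, ENSG00000164211), had 47.4, 53.9 and 38.7 CPM in Control and 73.8, 96.4 and 68.1 CPM in PM2.5. It rose 1.70-fold (log2 change 0.77 ± 0.14, SE, n = 3 each, adjusted p = 0.000488, edgeR), the largest called rise of the 30 genes, without overlap. MYLIP, a ubiquitin ligase that LXR induces and that marks lipoprotein receptors for destruction, had 25.2, 23.7 and 20.3 CPM in Control and 27.7, 28.1 and 30.8 CPM in PM2.5. Its log2 change was 0.32 ± 0.12 (adjusted p = 0.0442, edgeR), a call lost with no filter on low counts (adjusted p = 0.0776) and when any 1 library was left out: without Control replicates 1, 2 or 3 the adjusted p was 0.0507, 0.0918 and 0.112, and without PM2.5 replicates 1, 2 or 3 it was 0.0886, 0.0675 and 0.115 in edgeR's fit.

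SOAT1, which esterifies cholesterol for storage in droplets (chromosome 1, 179293714 to 179358680, plus strand, ENSG00000057252), had 72.8, 74.2 and 81.1 CPM in Control and 55.5, 65.1 and 50.8 CPM in PM2.5. It fell 1.33-fold (log2 change -0.41 ± 0.11, adjusted p = 0.00717, edgeR), with no overlap between the groups. NCEH1, a hydrolase that releases cholesterol from esters, rose in the opposite direction from 93.97, 97.02 and 114.5 CPM to 281.5, 294.3 and 267.4 CPM (log2 change 1.46 ± 0.10, adjusted p = 2.03e-08, edgeR). The ratio of NCEH1 to SOAT1 levels per kilobase was 1.88, 1.91 and 2.06 in Control and 7.397, 6.59 and 7.67 in PM2.5. OSBP, which exchanges sterol at the Golgi, was at 281 ± 38.1 and 287 ± 18.7 CPM, and SCARB1, a receptor for high density lipoprotein, at 38.9 ± 5.08 and 42.5 ± 2.53 CPM.

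**Figure D4:**
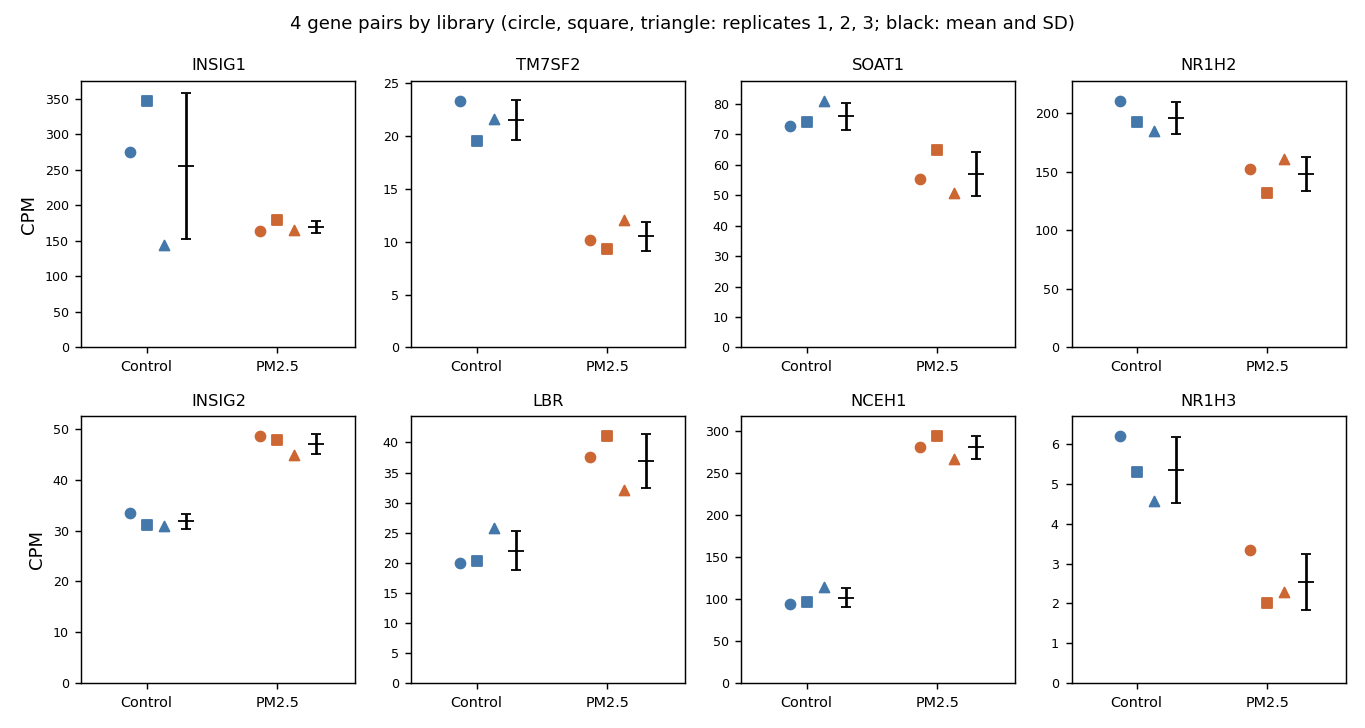
CPM (y axis, from 0) of 4 pairs of genes in the libraries of each group (x axis); blue is Control and orange PM2.5, circle, square and triangle are replicates 1, 2 and 3, and the black bar is the mean with its SD (n = 3). INSIG2, LBR and NCEH1 are higher in all PM2.5 libraries, and TM7SF2, SOAT1, NR1H2 and NR1H3 lower, while INSIG1 in Control replicate 3 lies below the PM2.5 libraries.

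The wider sterol and isoprenoid genes also moved both ways. Of 76 listed genes 72 were tested, of which 15 rose and 12 fell (20.8% and 16.7%, against 16.1% and 15.8% of all tested genes), and their median log2 change was 0.002. The number of falls was 7 without Control replicate 1 or PM2.5 replicate 1. Over all tested genes the falls were 1448 without PM2.5 replicate 1, against 2365 with all libraries. Among the other synthesis genes, besides LBR, ERG28, a scaffold of the C4 demethylation complex, fell by 0.61 ± 0.16 on the log2 scale. Leaving out Control replicate 2 or PM2.5 replicate 1 ended the ERG28 call (adjusted p = 0.0694 and 0.053, edgeR).

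Among 13 genes of SREBP processing and sterol-regulated degradation 3 rose and 2 fell (23.1% and 15.4%), near the 16.1% and 15.8% of all tested genes. RNF145, a ubiquitin ligase that acts on SCAP, rose from 95.6 to 100.9 CPM in Control to 140.1 to 143 CPM in PM2.5 (log2 change 0.52 ± 0.09). The ligase SYVN1 and the endoplasmic reticulum protein ERLIN1 rose by 0.55 ± 0.11 and 0.39 ± 0.09. SPRING1 (C12orf49 in the table), which SCAP and SREBP need to function, had 83.4, 80.7 and 68.5 CPM in Control and 50.8, 51.6 and 53.6 CPM in PM2.5, a log2 change of -0.58 ± 0.10.

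Of 21 sterol transfer genes 6 rose (28.6%, where 16.1% of all tested genes did) and 2 fell (9.52%, where 15.8% did). The oxysterol-binding relatives OSBPL3 and OSBPL6 rose by 0.94 ± 0.13 and 0.52 ± 0.13 on the log2 scale. The sterol carriers GRAMD1A and GRAMD1B moved apart, with log2 changes of -0.41 ± 0.11 from a mean of 352 CPM and 0.99 ± 0.24 from a mean of 2.15 CPM. Leaving out Control replicate 1 or PM2.5 replicate 1 ended the GRAMD1A call (adjusted p = 0.0537 and 0.0565, edgeR).

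Of 9 tested genes of ester storage, oxysterols and LXR targets 2 rose and 3 fell (22.2% and 33.3%, with 16.1% and 15.8% over all tested genes). The oxysterol-making enzymes CYP27A1, a sterol 27-hydroxylase, and CH25H, a cholesterol 25-hydroxylase, both fell. CYP27A1 had 50.1, 49.6 and 48.4 CPM in Control and 23.1, 18.5 and 25.6 CPM in PM2.5 (log2 change -1.14 ± 0.12, adjusted p = 2.57e-06, edgeR), and CH25H went from 21.7 ± 2.91 to 12.9 ± 2.20 CPM. The retinal reductase DHRS3 had a log2 change of -0.52 ± 0.14, a call lost without Control replicate 1 (adjusted p = 0.0538, edgeR).

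Of 14 genes of the isoprenoid branches 1 rose and 1 fell, 7.14% each way and below the 16.1% and 15.8% of all tested genes. NUS1, a subunit of the enzyme that makes dolichol for protein glycosylation, rose by 0.60 ± 0.10 on the log2 scale, and RABGGTA, a subunit of the transferase that prenylates Rab proteins, fell by 0.60 ± 0.12. Of 8 SREBP-1 lipogenic targets 2 rose and 2 fell (25% each way, where 16.1% and 15.8% of all tested genes did). The desaturase FADS1 fell by 0.66 ± 0.09 and the elongase ELOVL5 rose by 0.40 ± 0.11. The stearoyl-CoA desaturase SCD had 316, 360.4 and 223 CPM in Control and 223, 234 and 228 CPM in PM2.5, so Control replicate 3 again lay with the PM2.5 libraries. Its log2 change was -0.39 ± 0.13, a call lost without Control replicates 1 or 2 (adjusted p = 0.0848 and 0.211) or PM2.5 replicates 1, 2 or 3 (0.119, 0.0693 and 0.0731, edgeR). LPIN1 had a log2 change of 0.42 ± 0.15, a call lost without Control replicates 1 or 2 (adjusted p = 0.151 and 0.19) or PM2.5 replicate 2 (0.209), edgeR.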

How the data were processed

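The deposited file is 1 table of raw read counts, with 1 column for each of the 6 libraries and the symbols, coordinates and lengths of the genes, per the file headers. GRCh38 is named as the build in the submitters' processing notes. The aligner, counter and strandedness were not given in the sources used here. Positions and exon lengths of all 58735 genes matched GENCODE release 29, and that annotation was used for overlaps. The design text calls the replicates biological without saying how separate the cultures were, so p-values measure the spread between these libraries.

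The analysis used edgeR 4.0.16 in R 4.3.3. The filterByExpr function (at least 10 counts, total of 15) left 14975 genes, and TMM factors were 0.962 to 1.047. The quasi-likelihood test was two-sided with the group alone in the model. P-values were adjusted by Benjamini-Hochberg across these genes, and a call needed an adjusted p under 0.05. Each SE was derived from the F statistic (absolute log2 change over its square root). CPM uses TMM factors, and values are mean ± SD over 3 libraries. Levels per kilobase use the deposited gene lengths. Within-group pairs differed beyond sampling noise (chi-square per degree of freedom 5.74 to 36.3), and no libraries were merged. A count of 0 allows up to 0.0864 to 0.098 CPM (3 counts), for counting error only. Alternatives were RLE and upper quartile scaling, DESeq2 1.42.0, limma-voom (limma 3.58.1), no filter, a stricter filter (1 CPM), the replicate number as a block, and each library left out.

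The members and lists were chosen with earlier results of these data known. All 30 members are named, and of each other list up to 4 called genes with the smallest p and any defining gene at or near 0. Other genes are said to be chosen after their values were seen, apart from marker and label checks. A gene that this rule would name is not reported here.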

Additional observations from a re-analysis of the deposited data

How the results depend on the processing

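Of 390 values of the 30 genes under 13 alternatives, 342 kept their direction and their side of the threshold, 29 lost the call, 11 gained it and 8 changed sign. The sign changes were of genes that were not called: MVD (without Control replicates 1 or 2 or PM2.5 replicate 2), IDI1 (without Control replicate 2), EBP (without Control replicate 3), OSBP (without Control replicate 3 or PM2.5 replicate 2) and ACAT2 (without PM2.5 replicate 3). With 1 library left out at a time, log2 changes ran from -0.15 to 0.061 for MVD, -0.40 to 0.042 for IDI1, -0.0056 to 0.12 for EBP, -0.0805 to 0.11 for OSBP and -0.0094 to 0.22 for ACAT2. Leaving out 1 library at a time gave 4 to 12 falls and 2 to 3 rises among the 30 genes, 1 to 8 falls and 0 to 1 rises among the enzymes, and 7 to 17 falls among the 72 other genes. Over all genes it gave 1448 (without PM2.5 replicate 1) to 2680 (without Control replicate 3) falls. The cause was not tested. RLE and upper quartile scaling, DESeq2, limma-voom and the stricter filter each called 1 enzyme higher. Scaling moved the median of all genes by at most 0.02. No pairing by replicate number was found: deviations of same-numbered libraries correlated at -0.002, -0.05 and -0.12. With the replicate block 2 of the 30 genes rose and 6 fell, and the calls of DHCR7, INSIG1 and MYLIP were lost, as were those of SCD (adjusted p = 0.068, edgeR) and LPIN1 (0.0827) among the other genes named.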

Other observations

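Of the listed genes of ester storage and oxysterols, 4 were at or near 0. CYP7B1, an oxysterol 7-hydroxylase, had 0 counts in all 6 libraries, which allows up to 0.0864 to 0.098 CPM, and the intestinal and hepatic esterification enzyme SOAT2, the sulfotransferase SULT2B1 and the hydrolase EPHX2 had 8, 7 and 42 counts in all 6 libraries together, too few to be tested. The esterification transcripts of this line were thus almost wholly those of SOAT1.

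Several sterol genes share exons with neighbours, and with the strand setting unknown their reads cannot be told apart from those of opposite-strand transcripts. The share of exonic bases under exons of other genes was 83.2% for CYP51A1, 52.3% for ACAT2, 41% for GGPS1, 18.6% for FDPS, 15% for HMGCS1 and 14.8% for IDI1. Of the 6 called genes that held under all alternatives, TM7SF2 had 0.469%, STARD4 2.18% and NR1H3 4.17%, and INSIG2, NR1H2 and SOAT1 had 0%.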
